A study of Mus musculus with 9 samples.

Results

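The 9 genes described here make, sense and remove extracellular adenosine: the ectoenzymes Entpd1 and Nt5e, the receptors Adora1, Adora2a, Adora2b and Adora3, the enzymes Ada and Adk, and the transporter Slc29a1. They are 9 of the 34797 gene names on the arrays and are read by 12 probes, each with 1 spot. The list was chosen by the level of Adora2a, which was much lower in papilloma than in papilloma skin, so that the values and counts of that comparison are given as a description, with no p-value, and nothing is read from them. Expression was measured on 9 one-color Agilent arrays in neutrophils sorted as Gr-1bright cells from FVB/N mice. The mice had received DMBA when 6 weeks and again when 13 weeks old, and PMA from week 1 to week 18 to 20, a protocol in which papillomas form first and can progress to carcinoma. The groups were skin adjacent to papillomas (papilloma skin, 2 arrays), skin adjacent to tumors (tumor skin, 2 arrays), papilloma (3 arrays) and tumor (2 arrays). There was no untreated skin among them, and the RNA on an array came from a pool of mice. The methods list antibodies to CD45, CD3, B220, CD11c, NKp46, MHCII, Gr-1, Ly6C and Ly6G for the sort and report a high purity.

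Extracellular ATP is broken down to AMP by CD39, the product of Entpd1, and AMP to adenosine by CD73, the product of Nt5e. Adenosine acts on G protein coupled receptors, of which the products of Adora2a and Adora2b raise cyclic AMP and those of Adora1 and Adora3 lower it, and on neutrophils the product of Adora2a is known to restrain inflammatory responses. The signal ends when adenosine is taken up by carriers such as ENT1, the product of Slc29a1, and is deaminated by adenosine deaminase or phosphorylated by adenosine kinase.

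Values are log2 levels from the deposited value table. A probe was called where its limma adjusted p was at most 0.05, its absolute log2 fold change at least 1 and its mean log2 level over all arrays at least 6. Of the 12 probes, 11 reached that level and were well above background on all 9 arrays. The exception was the probe of Adora1.

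Some table columns did not follow the scanner file of their own label. After each probe was centered on its mean, Pearson's r across 28627 probes, which are not independent replicates, was 0.154 between the column papilloma skin 1 and its own file and 0.225 between the column tumor 1 and its own file. On these arrays and on tumor skin 1, 95.04%, 94.35% and 90.74% of the spots were flagged as well above background, against 44.25% to 64.23% on the other arrays. The columns papilloma 2 and papilloma 3 each followed the file of the other, with r of 0.658 and 0.737, against 0.379 and 0.407 with their own. These columns belong to 1 group, so an exchange between them does not change a comparison of groups in the fit without slide. Changes named below that rest on papilloma skin 1 or tumor 1 are mostly also given without both columns, and not for the marker lists or the likeness to Adora2a, and the group that keeps 1 array is then assumed to vary like the others.

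The neutrophil label was checked against its markers. Ly6g, which encodes the antigen used to define mouse neutrophils, had a mean log2 level of 10.61 and was well above background on all 9 arrays, as was S100a8, a calcium-binding protein abundant in neutrophils, at 18.08. The mean log2 level over the 16 neutrophil markers was 14.64 and 14.83 in papilloma skin, 15.46 and 15.12 in tumor skin, 13.77, 14.04 and 13.96 in papilloma, and 14.52 and 14.22 in tumor. By this mean the 5 lesion arrays were all lower than the 4 skin arrays, while the summed level, carried by S100a9 as the brightest, overlapped. In tumor versus tumor skin 5 of the 16 were called lower, Ltf, Camp, Ngp, Mmp8 and Ly6g itself, which fell by 2.09 (limma adjusted p = 0.00894), while S100a8 changed by -0.09 (limma adjusted p = 0.694).

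The probes of the members called in tumor versus tumor skin are shown by their first 30 of 60 bases, 5' to 3', with positions in mm9 as the array files give them. The second Adora3 probe, which was not called, is shown beside the first because they lie apart, the second over an interval longer than the probe itself.
Nt5e, chr9:88266616-88266675, plus strand: accgtttaaaattccaatccttttatgaag
Adora2a, chr10:74797461-74797520, plus strand: gcttgtttgtttgtttgtgttttattttcc
Adora3, first probe (A_55_P1972605), chr3:105711212-105711271, plus strand: ttaaaaagagggctaaatccacctgtgtgg
Adora3, second probe (A_51_P382789), chr3:105721698-105722939, plus strand: cagagggctcccgaatgtccattctgatca
The RefSeq table of GRCm38.p6 named the accessions of all 12 probes. It gave the gene of the array files for 11 of them and Tmigd3, a neighbor of Adora3, for the second Adora3 probe, which is therefore described apart.

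The choice by Adora2a did not use the arrays of tumor versus tumor skin. The members were still chosen with earlier results of these data known, and the fit shared its estimate of spread with the papilloma arrays. In tumor versus tumor skin 3 of the 11 member probes were called, against 8.13% of the 28871 probes at this level. Nt5e and 1 probe of Adora3 were higher, where 5.22% of all probes were called higher, and Adora2a was lower, where 2.91% were called lower. The median log2 fold change was 0.37 over the 11 probes and 0.05 over all probes. With so few members these counts are a description of the single genes.

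**Figure D1:**
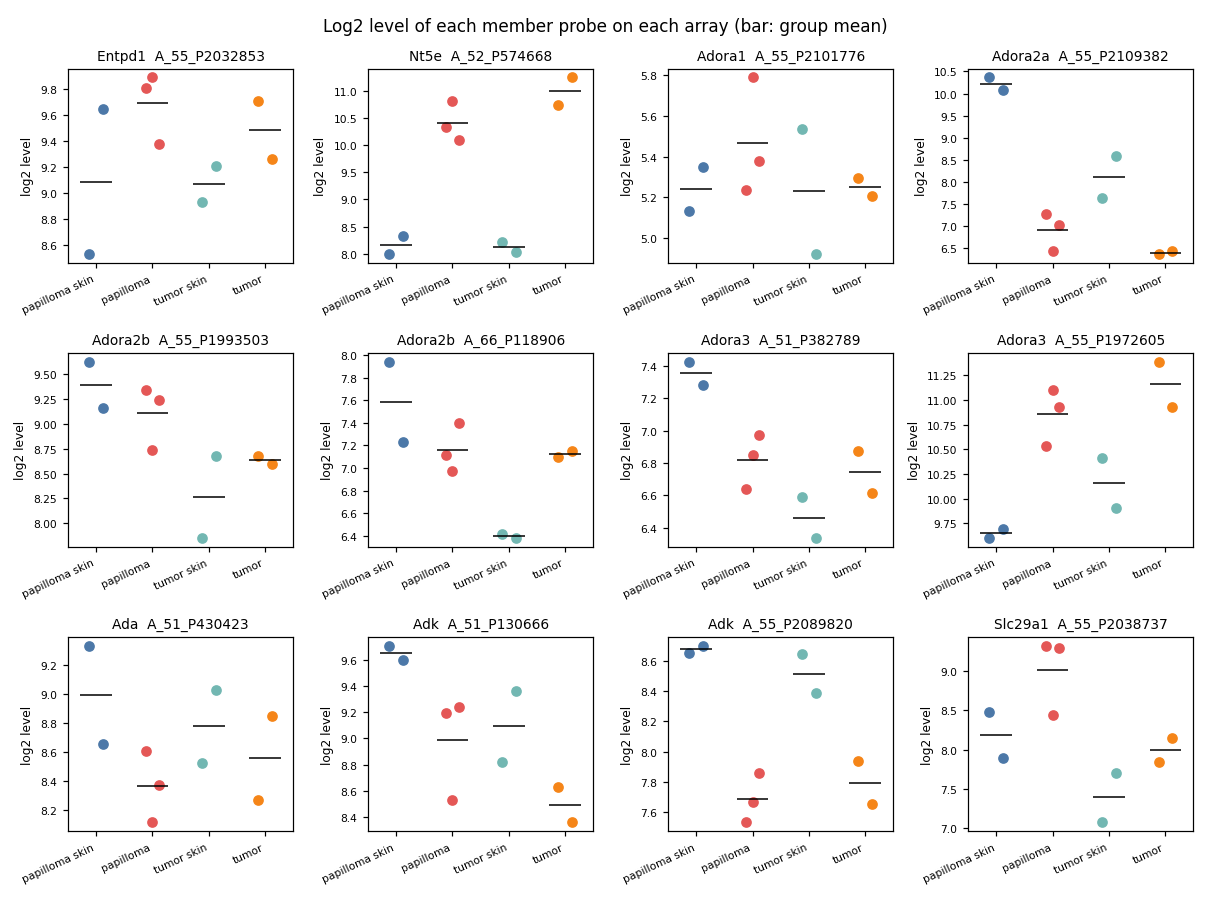
Log2 level (vertical axes, each with its own range) of the 12 member probes on each of the 9 arrays, by group, with a bar at the group mean. Nt5e is higher on every lesion array than on every skin array, and Adora2a is lower.

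Nt5e, the enzyme that forms adenosine, had log2 levels of 8.21 and 8.03 in tumor skin and 10.74 and 11.24 in tumor. Its levels were 8.00 and 8.32 in papilloma skin and 10.32, 10.82 and 10.09 in papilloma. The 5 lesion arrays lay above the 4 skin arrays with no overlap. The log2 fold change in tumor versus tumor skin was 2.88 (SE 0.27, limma adjusted p = 0.00159), with both tumor arrays above both tumor skin arrays. Without papilloma skin 1 and tumor 1 it was 3.13 (limma adjusted p = 0.0195), and within slide 1, which alone holds both groups and rests on tumor 1, tumor exceeded tumor skin by 2.54. In the scanner files the change was 2.51 to 2.85 and was not called, where limma called 0 of all probes and 645 to 2251 had an unadjusted p under 0.05. The description of papilloma against papilloma skin gave 2.25, or 2.09 without the doubtful columns, and 2.74 to 3.94 in the scanner files. Tumor differed from papilloma by 0.58 (limma adjusted p = 0.333), or 0.84 without both columns, and the skin groups differed by -0.04 (limma adjusted p = 0.943), or -0.20 without them, and neither passed the test. The sign of the skin difference turned without papilloma skin 2 (0.12), with slide as a term and in every scanner setting.

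Part of the keratinocyte list was also higher on lesion arrays. Of the 10 markers, 4 were called higher in tumor versus tumor skin (Krt14, Krt16, Krt6b and Krt6a). Their summed level, in log2, was 13.11 and 14.02 in tumor skin, 14.60 and 16.21 in tumor, 13.80 and 13.32 in papilloma skin, and 15.46, 14.50 and 14.27 in papilloma, so that all lesion arrays lay above all skin arrays. Both defining markers, Krt5 and Krt14, were well above background on all 9 arrays. Krt5, the brightest, was not called in tumor versus tumor skin (1.24, limma adjusted p = 0.427), with tumor skin 2 at 13.02 above tumor 1 at 12.11. The other Krt5 probe lay higher in tumor than in tumor skin by 1.55 with no overlap and was not called (limma adjusted p = 0.0561). The brightest probe of Trp63 lay lower in tumor than in tumor skin with no overlap and was not called (-0.39, limma adjusted p = 0.113). The other Trp63 probes changed by 0.86, 0.20 and -0.07, with overlap, and were not called.

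No other tissue list placed all lesion arrays above all skin arrays. The 6 endothelial markers had summed levels of 13.15 and 14.01 in tumor skin, 12.43 and 12.59 in tumor, 13.01 and 12.80 in papilloma skin, and 13.49, 12.71 and 13.05 in papilloma. Tumor lay below tumor skin by this sum, which the brightest gene, Kdr, carries, and above it by the mean log2 level over the list, at 7.79 and 8.45 against 7.41 and 7.55. By that mean papilloma, at 9.36, 8.87 and 9.21, also lay above papilloma skin, at 8.50 and 7.62. The Kdr probe in the sum changed by -1.30 in tumor versus tumor skin with no overlap (limma adjusted p = 0.0507). The other Kdr probe changed by 1.08 with overlap (limma adjusted p = 0.207), and neither was called. As a description, these probes differed by -0.03 and 2.26 in papilloma versus papilloma skin. Of the 5 markers that reached the level minimum, 1 was called higher in tumor versus tumor skin, Cdh5, a defining marker, and the other defining marker, Pecam1, was well above background on all 9 arrays. As a description, 3 met the thresholds as higher in papilloma versus papilloma skin (Pecam1, Cdh5 and Emcn). The 8 fibroblast markers had summed levels of 13.11 and 13.25 in tumor skin, 12.59 and 13.97 in tumor, 14.82 and 13.72 in papilloma skin, and 15.71, 15.23 and 15.45 in papilloma. Tumor and tumor skin overlapped, 1 marker was called higher (Pdgfrb) and 1 lower (Dcn), and Col1a2, a defining marker beside Col1a1, was the brightest. CD45, for which the sorted cells were stained, is absent from keratinocytes, endothelial cells and fibroblasts, and the text of the methods does not describe the gate. The part of these cells in the level of Nt5e was not tested. In sorted cells measured in bulk, more or fewer cells of a type and more or less RNA per cell cannot be told apart.

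Entpd1, which acts one step before Nt5e, had log2 levels of 8.53 and 9.64 in papilloma skin, 8.93 and 9.21 in tumor skin, 9.81, 9.89 and 9.38 in papilloma, and 9.70 and 9.26 in tumor. The tumor arrays lay just above the tumor skin arrays, and the papilloma skin arrays spanned most of the range. The change in tumor versus tumor skin was 0.41 (SE 0.35, limma adjusted p = 0.5), or 0.19 without both columns. It did not pass the test, and its sign turned in 3 of the 4 settings that use the scanner files, normexp being the exception.

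Among the receptors, Adora2a encodes one that raises cyclic AMP. Its log2 levels were 7.63 and 8.60 in tumor skin and 6.37 and 6.43 in tumor, and tumor lay below tumor skin with no overlap. The log2 fold change was -1.71 (SE 0.35, limma adjusted p = 0.0233). Without papilloma skin 1 and tumor 1 it was -1.68 and not called (limma adjusted p = 0.115). In the scanner files with quantile scaling, tumor stood at 3.88 and 5.97 and tumor skin at 6.95 and 9.13, a larger fall. The change was not called in any scanner setting. A term for slide in the value table made it -1.36 and not called (limma adjusted p = 0.156), and within slide 1 the difference was -1.26. With the replicate number as a block it was also not called (limma adjusted p = 0.105), and over all alternatives the adjusted p ran from 0.0161 to 1. The call was lost without tumor skin 2 (-1.23, limma adjusted p = 0.0753), without tumor 1 (-1.68, limma adjusted p = 0.0899) and without tumor 2 (-1.74, limma adjusted p = 0.118), while the sign was the same in every setting.

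The values that the genes were selected on were log2 levels of 10.36 and 10.07 in papilloma skin and 7.28, 6.43 and 7.02 in papilloma. Their difference was -3.31, or -3.16 without the doubtful columns, and -0.92 to -1.82 in the scanner files. In the scanner file of papilloma skin 1 the quantile normalized level was 5.47, against 10.36 in the table, whereas papilloma skin 2 had 10.14 there. The difference was -0.51 between tumor and papilloma, or -0.48 without both columns, and -2.10 between tumor skin and papilloma skin, or -1.96 without them, all untested. In the scanner files with quantile scaling, tumor skin stood at 6.95 and 9.13, within the range of papilloma skin. The sign of the skin difference turned there, with and without slide as a term. The means ± SD in the value table were, from high to low, 10.22 ± 0.21 for papilloma skin (n = 2), 8.11 ± 0.68 for tumor skin (n = 2), 6.91 ± 0.44 for papilloma (n = 3) and 6.40 ± 0.04 for tumor (n = 2). Papilloma and tumor overlapped, and the other neighbors did not.

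Part of the eosinophil list moved with Adora2a. Of the 9 markers, 7 reached the level minimum, and in tumor versus tumor skin 5 were called lower (Ear2, Ccr3, Ear1, Il5ra and Alox15) and 1 higher (Siglec5, the brightest). The defining markers were not called, with changes of 0.64 for Prg2 (limma adjusted p = 0.438) and 0.14 for Epx (limma adjusted p = 0.658), and Epx was well above background on 3 of 9 arrays and Prg2 on 4. In tumor skin versus papilloma skin Epx differed by -1.06 (limma adjusted p = 0.0502) and Prg2 by -1.02 (limma adjusted p = 0.248), and neither was called. As a description, papilloma differed from papilloma skin by -0.54 for Epx and -1.06 for Prg2. For both genes papilloma skin lay above tumor skin and above papilloma with no overlap. The mean log2 level over the list was 9.37 and 9.09 in papilloma skin, 8.45 and 8.32 in tumor skin, 7.21, 7.20 and 7.52 in papilloma, and 7.52 and 7.12 in tumor. The summed level was 14.15 and 13.80 in papilloma skin, 13.19 and 13.17 in tumor skin, 11.84, 12.22 and 12.22 in papilloma, and 13.12 and 12.93 in tumor. Lesion arrays lay below skin arrays by both measures, by little between tumor and tumor skin in the sum.

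Some markers of other immune cells were lower in tumor than in tumor skin too. Of the 3 B and plasma cell markers that reached the level minimum, 2 were called lower in tumor versus tumor skin, Igj, the brightest, and Cd79b. Igj fell by 7.13 (limma adjusted p = 0.00343) and Cd79b by 3.06 (limma adjusted p = 0.0162). For both genes all lesion arrays lay below all skin arrays.

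The 10 monocyte and macrophage markers had summed levels of 16.62 and 16.31 in papilloma skin, 16.51 and 16.92 in tumor skin, 15.84, 15.59 and 15.94 in papilloma, and 15.79 and 15.68 in tumor. In tumor versus tumor skin 2 were called lower, Ly6c1 and Emr1, and the defining markers Csf1r, the brightest, and C1qa were not called. The 8 dendritic cell markers had a median log2 fold change of -0.75, and 1 was called lower, Cd74, the brightest. The defining markers Cd207 (-0.37, limma adjusted p = 0.591) and Flt3 (-1.13, limma adjusted p = 0.288) were not called, and of the 8 only Ccr7 lay higher (0.99, limma adjusted p = 0.152). The summed level of this list was 15.16 and 14.34 in papilloma skin, 13.79 and 14.57 in tumor skin, 14.66, 13.62 and 14.90 in papilloma, and 12.22 and 12.40 in tumor, so that tumor lay below tumor skin while papilloma and papilloma skin overlapped. Of the T cell list 1 of 9 was called lower, Cd3d, and the median was -0.17. In the T cell and monocyte lists some genes lay higher in tumor than in tumor skin, such as Lck (0.90) and C1qa (0.59), and were not called. The antibodies of the sort cover B, T and dendritic cells through B220, CD3, CD11c and MHCII, and the study describes the sorted cells as Ly6G positive, not monocytes, and free of eosinophils by the absence of Epx. The part of eosinophils and of these other cells in the level of Adora2a was not tested.

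**Figure D2:**
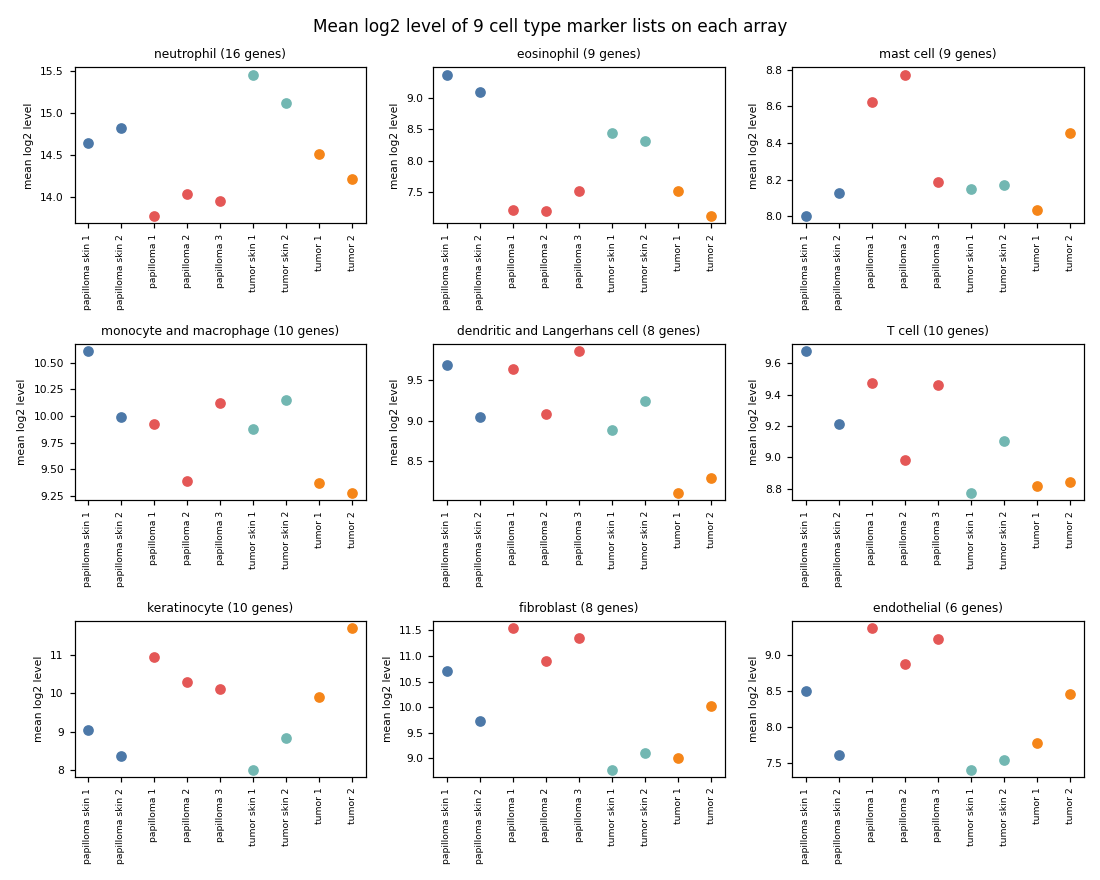
Mean log2 level (vertical axes, each with its own range) of 9 lists of cell type markers on each of the 9 arrays, colored by group. The eosinophil list is lower on the 5 lesion arrays than on the 4 skin arrays, and the keratinocyte list is higher.

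The 5 genes most like Adora2a over the 9 arrays, out of 19707 gene names compared, were Aspa (Pearson's r = 0.993), Ccl9 (r = 0.992), Wnt11 (r = 0.992), Lactb (r = 0.991) and Emr4 (r = 0.988). Ccl9, a chemokine, had log2 levels of 14.27 and 13.64 in papilloma skin, 11.95 and 12.58 in tumor skin, 11.21, 10.40 and 11.28 in papilloma, and 10.64 and 10.51 in tumor. The likeness is a description, since 5 of the 9 arrays carry the values that the genes were selected on and all share groups and slides.

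Adora2b encodes the other receptor that raises cyclic AMP and is read by 2 probes, A_55_P1993503 (first) and A_66_P118906 (second). The first had log2 levels of 9.63 and 9.16 in papilloma skin, 7.85 and 8.67 in tumor skin, 9.34, 8.74 and 9.24 in papilloma, and 8.67 and 8.60 in tumor. The second had 7.94 and 7.23 in papilloma skin, 6.41 and 6.38 in tumor skin, 7.12, 6.97 and 7.40 in papilloma, and 7.10 and 7.15 in tumor. On both probes tumor skin lay below papilloma skin with no overlap. The differences were -1.13 (SE 0.31, limma adjusted p = 0.105) and -1.19 (SE 0.24, limma adjusted p = 0.0627), or -0.89 and -0.83 without both columns, and neither was called. In the scanner files the sign of the first probe turned. In tumor versus tumor skin the changes were 0.37 (limma adjusted p = 0.485) and 0.73 (limma adjusted p = 0.0963), or 0.33 and 0.75 without both columns. There the first probe's sign turned without tumor skin 1 (-0.0391) and in all scanner settings except quantile scaling without slide.

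Adora3 encodes a receptor that lowers cyclic AMP. Its first probe had log2 levels of 9.60 and 9.69 in papilloma skin, 10.41 and 9.90 in tumor skin, 10.53, 11.11 and 10.93 in papilloma, and 11.39 and 10.93 in tumor. All lesion arrays lay above all skin arrays. The change in tumor versus tumor skin was 1.00 (SE 0.26, limma adjusted p = 0.0462), at the edge of both thresholds. It was 0.77 (limma adjusted p = 0.204) without papilloma skin 1 and tumor 1, 0.92 (limma adjusted p = 0.246) once slide was a term, and 0.98 within slide 1. The call was lost in 8 of the 9 fits without 1 array, papilloma 1 being the exception. The value was 0.75 without tumor skin 2, 0.77 without tumor 1, 1.23 without tumor 2, 1.25 without tumor skin 1, and 1.00 without papilloma skin 1, papilloma skin 2, papilloma 2 or papilloma 3. In the scanner files the change was 0.14 to 0.45 and was not called, and with quantile scaling there tumor 1 lay at 10.13, below tumor skin 2 at 10.14. Papilloma differed from papilloma skin by 1.21, or 1.16 without both columns, and by 2.12 to 2.63 in the scanner files. The second probe, which RefSeq places in Tmigd3, had log2 levels of 7.43 and 7.28 in papilloma skin, 6.59 and 6.34 in tumor skin, 6.64, 6.85 and 6.97 in papilloma, and 6.87 and 6.62 in tumor. It was highest in papilloma skin, unlike the first probe, and its change in tumor versus tumor skin was 0.28 (SE 0.18, limma adjusted p = 0.352), or 0.15 without both columns.

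The probe of Adora1, the other receptor that lowers cyclic AMP, was not well above background on 6 of 9 arrays. The other 3 were papilloma skin 1, tumor skin 1 and tumor 1, on which most spots carried the flag, so no fold change is given. The log2 levels were 5.14 and 5.35 in papilloma skin, 5.54 and 4.92 in tumor skin, 5.23, 5.79 and 5.38 in papilloma, and 5.30 and 5.21 in tumor, and the groups overlapped.

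Of the genes that remove adenosine, Adk encodes adenosine kinase and is read by 2 probes, A_51_P130666 (first) and A_55_P2089820 (second). The second had log2 levels of 8.65 and 8.70 in papilloma skin, 8.64 and 8.39 in tumor skin, 7.54, 7.67 and 7.86 in papilloma, and 7.94 and 7.65 in tumor. All lesion arrays lay below all skin arrays. The change in tumor versus tumor skin was -0.72 (SE 0.18, limma adjusted p = 0.0404), which passed the p threshold and not the threshold on size. Without both columns it was -0.86 (limma adjusted p = 0.0827). The first probe had log2 levels of 9.71 and 9.60 in papilloma skin, 8.82 and 9.36 in tumor skin, 9.20, 8.53 and 9.24 in papilloma, and 8.63 and 8.36 in tumor. Tumor again lay below tumor skin with no overlap, with a change of -0.60 (SE 0.28, limma adjusted p = 0.210), or -0.73 without both columns. Ada, adenosine deaminase, had log2 levels of 9.33 and 8.65 in papilloma skin, 8.53 and 9.03 in tumor skin, 8.60, 8.12 and 8.37 in papilloma, and 8.27 and 8.85 in tumor. Its change in tumor versus tumor skin was -0.22 (SE 0.31, limma adjusted p = 0.696), with overlapping groups, and 0.0698 without both columns.

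Slc29a1, the carrier ENT1, had log2 levels of 8.47 and 7.89 in papilloma skin, 7.07 and 7.71 in tumor skin, 9.32, 8.44 and 9.30 in papilloma, and 7.84 and 8.15 in tumor. Tumor lay below papilloma and just above tumor skin with no overlap. The difference between tumor and papilloma was -1.03 (SE 0.33, limma adjusted p = 0.224) and that between tumor and tumor skin 0.61 (SE 0.36, limma adjusted p = 0.321), and neither was called. Without both columns they were -0.87 and 0.76. The sign against papilloma turned in the scanner files with quantile scaling (0.39), with slide as a term there (0.27) and with normexp (0.44).

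**Figure D3:**
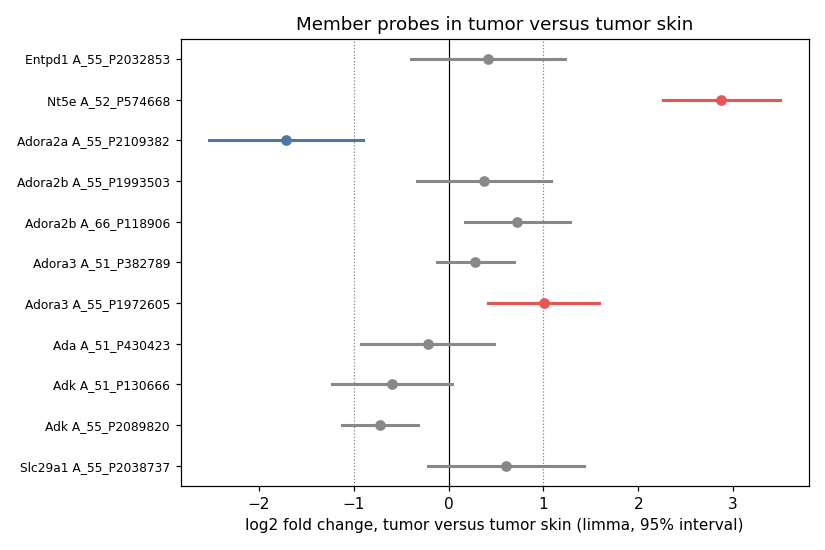
Log2 fold change in tumor versus tumor skin (horizontal axis) of the 11 member probes that reached the level minimum, with the 95% interval of limma, dotted lines at the size threshold and called probes in color. Nt5e at 2.88 stands farthest from 0, and the intervals of Adora3 at 1.00 and of Adora2a at -1.71 cross the size threshold.

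In papilloma versus papilloma skin, the comparison that led to the choice, 3 of 11 member probes met the thresholds, against 6.13% of all probes. Of these 2 were higher (4.20% of all probes) and 1 was lower (1.93%). Nothing is read from these counts. In tumor versus papilloma limma called 0 of the 10 probes of members other than Adora2a, against 0.862% of all probes. There 2 of the 10 had an unadjusted p under 0.05, against 15.8% of all probes. In tumor skin versus papilloma skin limma called 0 of 10, against 0.502%, and the smallest limma adjusted p was 0.0608. There 3 of the 10 had an unadjusted p under 0.05, against 23.1% of all probes. The counts over all probes changed when 1 array was left out. Between the skin groups limma called 145 of all probes, and 2 to 8 without any 1 of the 9 arrays. In tumor versus papilloma it called 249, against 25 without tumor 1, 30 without tumor 2, 46 without papilloma 3, 91 without papilloma 1 and 160 without papilloma 2. In tumor versus tumor skin it called 2346, against 806 without tumor 2 and 1698 to 2375 without any other array.

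The other genes of the pathway were described by lists. Of 96 genes, 80 reached the level minimum, and 9 were called in tumor versus tumor skin, 4 higher and 5 lower. That is 11.2%, against 8.13% of all probes called, 5.22% higher and 2.91% lower, with a median log2 fold change of -0.05 against 0.05 over all probes. Without papilloma skin 1 and tumor 1 there were 8, of which 6 were among the 9, against 6.06% of all probes. With slide as a term limma called 0 of these genes in that comparison, where it called 0.724% of all probes and 7249 of them had an unadjusted p under 0.05. With the replicate number as a block it called 2, against 2.55% of all probes. Among the ectonucleotide enzymes 1 of 11 was called, Entpd5, which rose by 1.38 (SE 0.18, limma adjusted p = 0.00439), or by 1.42 without both columns, and the list's median was -0.06. Among 19 intracellular adenosine and purine enzymes 2 were called, both higher, with a median of -0.29. These were Pnp, purine nucleoside phosphorylase, which rose by 1.13 (limma adjusted p = 0.0106), or by 1.27 without both columns, and Ahcyl1, which rose by 1.03 (limma adjusted p = 0.00508). The call of Pnp was lost without tumor 2 (0.98), and that of Ahcyl1 without both columns or tumor 1 alone (0.98) and without tumor skin 1 (0.96).

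Of 5 nucleoside transporters, 2 were lower, with a median of -0.60. The concentrative carriers Slc28a2 and Slc28a1 fell by 1.29 (limma adjusted p = 0.0386) and fell by 1.10 (limma adjusted p = 0.0254). Without both columns the values were -1.65, still called, and -1.21, not called. The call of Slc28a2 was lost without tumor skin 1 (-1.10), tumor skin 2 (-1.47) or tumor 2 (-0.92) and without any 1 of the papilloma arrays (-1.29). That of Slc28a1 was lost without tumor skin 2 (-0.83), papilloma 3 (-1.10), tumor 1 (-1.21) or tumor 2 (-0.98). Of 14 genes of ATP release and P2 receptors, 1 was higher and 2 lower, with a median of 0.24. P2rx1, an ATP-gated channel, fell by 1.25 (limma adjusted p = 0.00300), P2ry1 fell by 1.13 (limma adjusted p = 0.0197), and P2rx7, the channel opened by high ATP, rose by 1.12 (limma adjusted p = 0.0381). Without both columns the values were -1.18 for P2rx1 and -1.37 for P2ry1, both called, and 1.21 for P2rx7, not called. Leaving out 1 array ended no call of P2rx1. It ended that of P2ry1 without tumor skin 1 (-0.96) or tumor 2 (-0.90), and that of P2rx7 without tumor skin 1 (1.31), tumor skin 2 (0.93), papilloma 1 or papilloma 2 (1.12), tumor 1 (1.21) or tumor 2 (1.04).

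Of 31 genes of cyclic AMP signalling, 1 was lower, with a median of -0.02. It was Prkar2b, a regulatory subunit of protein kinase A, which fell by 1.40 (limma adjusted p = 0.00919), or by 1.68 without both columns, and was not called without tumor 2 (-1.13). Crem, a repressor and activator of cyclic AMP response genes, is added here after its values were seen. Its brightest probe, the one counted, stood just under the size threshold at 1.00 (limma adjusted p = 0.0330), and another probe was called higher at 1.69 (limma adjusted p = 0.0113). Without both columns they were 0.71 and 1.42, and neither was called.

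As a description, 8 of the 80 genes met the thresholds in papilloma versus papilloma skin, 4 in each direction, against 6.13% of all probes, 4.20% higher and 1.93% lower. The largest difference in each direction was -2.48 for P2ry10 and 1.72 for Entpd3. Without both columns these genes were at -2.44 and 1.44, and Adcy4 (1.67) and P2rx7 (1.52) then lay above Entpd3. In tumor versus papilloma 1 gene was called, or 1.25%, against 0.862% of all probes. It was Prkacb, a catalytic subunit of protein kinase A, which fell by 1.46 (SE 0.22, limma adjusted p = 0.0363). This call was lost with the replicate number as a block (-1.36, limma adjusted p = 0.386), and with slide as a term and without papilloma skin 1 and tumor 1, where limma called 0 of the 28871 probes in tumor versus papilloma, with 2619 and 2795 at an unadjusted p under 0.05, and the value was -1.32 and -1.47. It was also lost without papilloma skin 1 or papilloma skin 2 (-1.46), papilloma 1 (-1.37), papilloma 3 (-1.36), tumor 1 (-1.47) or tumor 2 (-1.45). Between the skin groups limma called 0 of the 80 genes, against 0.502% of all probes. Of these genes 27 had an unadjusted p under 0.05, against 6662 of the 28871 probes.

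**Figure D4:**
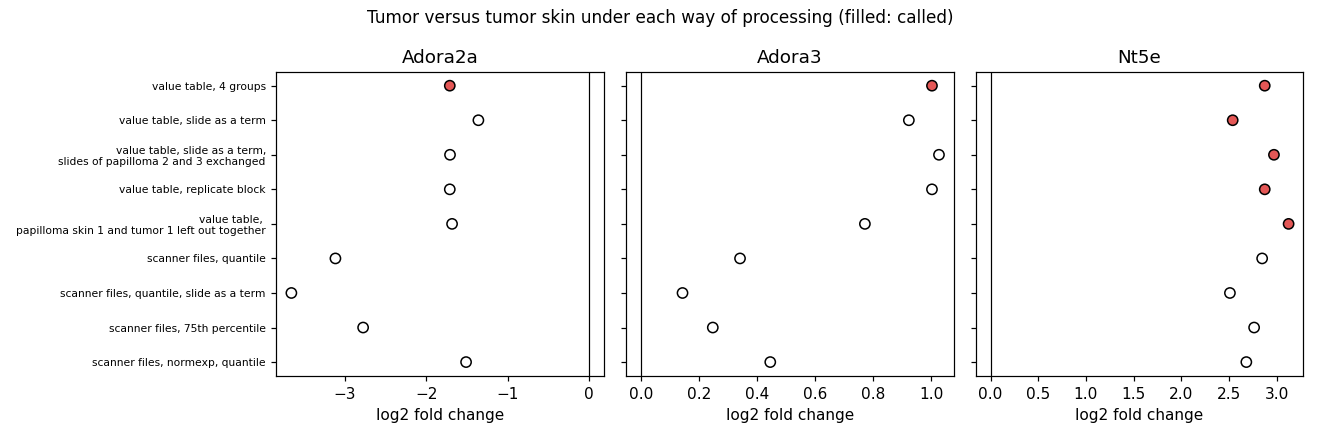
Log2 fold change in tumor versus tumor skin (horizontal axes, each with its own range) of Adora2a, the first probe of Adora3 and Nt5e under each way of processing, filled where called. The sign of each gene is the same throughout, and Nt5e is the only one of the 3 called in all 5 settings that use the value table.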

How the data were processed

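Neutrophils from 4 groups were measured on 9 one-color arrays. The authors deposited scanner files with fluorescence intensity per spot, background-subtracted by Feature Extraction per the file headers and not scaled between arrays. The deposited value table holds 1 log2 value per probe and array, with column medians of 6.08 to 6.12. The methods name ComBat against differences between chips, besides quantile normalization, and do not say whether the table was made before or after them. Slide held 11.4% of its variance on average over probes and group 61.3%. If slide had been removed beforehand, the degrees of freedom this took are unknown to limma and its p-values would be too small.

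The table of 55681 probes was fitted with limma 3.58.1 in R 4.3.3, with 4 groups and 5 residual degrees of freedom, and p-values were adjusted by Benjamini-Hochberg over all probes. The labels do not say whether pools shared mice, so p-values measure the spread between arrays. Alternatives took the slide or the replicate number as a term, left out arrays, used the scanner files (log2 processed signal with quantile or 75th percentile scaling, or normexp with an offset of 50), dropped the level minimum or dim probes, or took the gene as unit. Control spots were left out, and from the scanner signals also spots marked as outliers. The pathway lists name at most the 4 called genes of largest change per list, with the probe of largest mean level for a gene. Any gene name other than the probe's own name counted in the likeness to Adora2a. The members and lists were chosen with earlier results of these data known. One marker, and the levels of its list as a whole, are not reported here.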

Additional observations from a re-analysis of the deposited data

Results flagged for a closer look

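The second Adora3 probe, whose accession RefSeq lists under Tmigd3, had arrays apart in opposite directions at the 2 stages. Every papilloma array lay below every papilloma skin array, with a log2 difference of -0.54, or -0.46 without papilloma skin 1 and tumor 1, a description of the comparison that chose the genes. Every tumor array lay above every tumor skin array, with a difference of 0.28 that was not called (limma adjusted p = 0.352). In the scanner files with quantile scaling the arrays overlapped at both stages. There tumor 2 at 6.26 lay below tumor skin 2 at 6.37, and papilloma 2 at 7.05 above papilloma skin 1 at 6.37. The difference between the stages was not tested.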

How the results depend on the processing

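In tumor versus tumor skin Nt5e was called in every setting that used the value table, with values of 2.54 to 3.13, and its sign was the same in the scanner files, where limma called 0 member probes at any scaling. Adora2a was lower in all settings run and its call was lost in 8 of them besides 3 of the fits without 1 array, and the first Adora3 probe lost its call in all 8 of these. The cause was not tested. Of the member probes, 3 were called in tumor versus tumor skin, against 1 with slide as a term, 1 with the slides of papilloma 2 and papilloma 3 exchanged (chosen after seeing the data), 1 without papilloma skin 1 and tumor 1, 0 in each scanner setting and 1 to 3 without 1 array. Over all 28871 probes the count fell from 2346 to 209 with slide as a term, 153 with the slides exchanged, 737 with the replicate block, 1750 without papilloma skin 1 and tumor 1, 0 in the scanner files and 806 to 2375 without 1 array. Without 1 array it was 25 to 301 in tumor versus papilloma, from 249, and 2 to 8 in tumor skin versus papilloma skin, from 145. In papilloma versus papilloma skin 3 met the thresholds, against 0 in each scanner setting. Of the pathway genes, 9 were called in tumor versus tumor skin, against 0 with slide as a term, 0 with the slides exchanged, 0 in each scanner setting, 5 with the gene as unit and 5 to 9 without 1 array. Dropping the level minimum or the dim probes left 3 member probes called in tumor versus tumor skin. The called pathway genes kept their signs in the scanner files, and some values moved. In tumor versus tumor skin P2ry1 was -3.23 to -1.52, from -1.13, and Slc28a1 -1.72 to -1.26, from -1.10. Entpd5 was 0.80 to 1.04, from 1.38, and Ahcyl1 0.60 to 0.98, from 1.03. Prkacb in tumor versus papilloma was -1.31 to -0.77, from -1.46.

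The arrays carry replicate numbers that the labels do not call pairs, and deviations of same-numbered arrays from their group means correlated at -0.96 to 0.54. With the number as a block, 1 member probe and 2 pathway genes were called in tumor versus tumor skin, and Adora2a was at -1.71 and not called. In tumor versus papilloma signs turned for the second probe of Adora2b (0.0768) and the second probe of Adora3 (0.000537).

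Adora2a in tumor versus tumor skin was -1.36 with slide as a term, -1.71 with the slides exchanged, -1.68 without papilloma skin 1 and tumor 1, -3.12 in the scanner files with quantile scaling, -3.66 with slide as a term there, -2.78 with the 75th percentile and -1.51 with normexp. Without 1 array it was -2.20 to -1.23. Signs of values that were not called also turned. With slide as a term this held for the second probe of Adora2b (0.0426) in tumor versus papilloma, and Entpd1 (0.17) and Nt5e (0.30) in tumor skin versus papilloma skin. Without papilloma skin 1 and tumor 1 it held for Ada (0.0698) in tumor versus tumor skin, the second probe of Adk (-0.0353) in tumor versus papilloma and Ada (0.13) between the skin groups.

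In the scanner files with quantile scaling, signs turned for Entpd1 (-0.0297) in tumor versus tumor skin, for the first probe of Adora3 (-0.26) and Slc29a1 (0.39) in tumor versus papilloma, and between the skin groups for Ada (0.85), the first probe of Adk (1.18), Adora2a (0.24), the first probe of Adora2b (1.61), Entpd1 (1.25), Nt5e (1.74) and Slc29a1 (1.08). With slide as a term there, they turned for the first probe of Adora2b (-0.15) and Entpd1 (-0.27) in tumor versus tumor skin, for the first probe of Adora3 (-0.16) and Slc29a1 (0.27) in tumor versus papilloma, and between the skin groups for Ada (0.91), the first probe of Adk (1.57), Adora2a (0.78), the first probe of Adora2b (1.91), the second probe of Adora2b (0.0801), Entpd1 (1.49), Nt5e (2.08) and Slc29a1 (1.43). With the 75th percentile they turned for the first probe of Adora2b (-0.049) and Entpd1 (-0.0837) in tumor versus tumor skin, for the second probe of Adora3 (0.22) and the first probe of Adora3 (-0.73) in tumor versus papilloma, and between the skin groups for Ada (0.74), the first probe of Adk (0.78), the first probe of Adora2b (1.04), Entpd1 (0.65), Nt5e (0.96) and Slc29a1 (0.54). With normexp they turned for the first probe of Adora2b (-0.0693) in tumor versus tumor skin, for the first probe of Adora3 (-0.13) and Slc29a1 (0.44) in tumor versus papilloma, and between the skin groups for Ada (0.62), the first probe of Adk (0.76), the first probe of Adora2b (0.66), Entpd1 (0.73), Nt5e (0.74) and Slc29a1 (0.32). The file of papilloma skin 1, in which Nt5e stood at 4.44 against 8.00 in the table, enters all values between the skin groups and those of papilloma versus papilloma skin. In the latter, given as a description, signs turned in all 4 scanner settings for Ada (0.29 to 0.46, from -0.63), the first probe of Adk (0.73 to 1.07, from -0.67), the first probe of Adora2b (1.36 to 2.61, from -0.29) and its second probe (0.29 to 0.91, from -0.42). There Nt5e was 2.74 to 3.94, from 2.25, the first probe of Adora3 2.12 to 2.63, from 1.21, Entpd1 1.30 to 1.96, from 0.60, Slc29a1 1.69 to 2.91, from 0.84, and Adora2a -1.82 to -0.92, from -3.31.

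Without 1 array, values that crossed 0 ranged from -0.51 to 0.0698 for Ada and -0.0391 to 0.78 for the first probe of Adora2b in tumor versus tumor skin. They ranged from -0.0928 to 0.48 for Ada, -0.0353 to 0.25 for the second probe of Adk, -0.14 to 0.0768 for the second probe of Adora2b, -0.20 to 0.0528 for the second probe of Adora3 and -0.43 to 0.0142 for Entpd1 in tumor versus papilloma. They ranged from -0.55 to 0.13 for Ada, -0.57 to 0.54 for Entpd1 and -0.20 to 0.12 for Nt5e in tumor skin versus papilloma skin. Signal over background limits Adora1, for which no fold change is given.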
